A study of Mus musculus with 18 samples.

Results

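The genes described here are the cell-cycle cyclins, the cyclin-dependent kinases (CDKs) and the CDK inhibitors of the mouse, measured by RNA sequencing in testis. They were taken from the deposited mRNA table by symbol: every gene named as a cyclin (Ccn and a letter), a CDK or a CDK inhibitor, leaving out Cdk7, Cdk8, Cdk9, Cdk11b, Cdk12, Cdk13, Ccnl1, Ccnl2, Ccnk and Ccnt1. The rule found 45 of the 22298 genes in the table, and all 45 were above 0 in at least some library. It used no measured value. A few genes that it kept have roles outside the cell cycle, among them Ccnc, Ccnh, Ccnt2 and Cdk19, which act in transcription, and Cdkn2aip and Cdkn2aipnl, which carry an inhibitor's symbol without being CDK inhibitors.

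The libraries came from whole testis of adult C57BL/6 mice that were either wild type (TWT) or carried a knock-in allele of Taf7l (TKI), with 3 libraries per genotype. Taf7l is an X-linked, germ-cell relative of a subunit of TFIID, the general transcription factor that binds at gene starts, and the comparison addresses how the testis transcriptome differs with the knock-in allele. The labels name 18 samples, of which the 12 from separated germ cells (pachytene spermatocytes or round spermatids) were not analysed here. What the knock-in changes in the protein is not stated in the labels used here, and neither is the number of animals behind the libraries, so the p-values rest on a spread between libraries that may be partly technical.

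A cyclin binds a CDK and switches on its kinase activity, and cells move through division as cyclins are made and destroyed in turn. D cyclins with Cdk4 and Cdk6 act early in the cycle, E cyclins and A cyclins with Cdk2 act around DNA replication, and B cyclins with Cdk1 drive entry into division. Inhibitors of the Cip/Kip family bind cyclin-CDK complexes and those of the Ink4 family bind Cdk4 and Cdk6. Male germ cells use these proteins in the mitotic divisions of spermatogonia and again in meiosis, where cyclin A1 replaces cyclin A2 as the partner of Cdk2 and Cdk1. Cyclin Y and its kinases of the Cdk14 to Cdk18 family form a separate branch, and male mice without Cdk16 are infertile with malformed sperm.

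The mRNA table held 17431309 to 21446420 counts per library, with 18262 to 18427 genes detected, and the common biological coefficient of variation was 11.1%. Levels of different genes are compared in FPKM, fragments per kilobase, scaled to library size, as the authors deposited them. Genotypes are compared in counts, shown as CPM (counts scaled to the library total after TMM normalisation), with edgeR's quasi-likelihood test on all genes, and a gene was called changed at a Benjamini-Hochberg adjusted p under 0.05. Every log2 fold change below is knock-in against wild type, with its standard error and n = 3 against 3. The expected testis cells were present: the spermatid gene Prm1 averaged 5735 FPKM, the Leydig cell gene Insl3 476 FPKM, the spermatocyte gene Sycp3 38.6 FPKM and the Sertoli cell gene Sox9 3.45 FPKM. Of 7 epididymis genes, 3 were at 0 in all libraries. The summed FPKM of the 7 was 5.08 to 15.8 in wild-type testis and 4.02 to 11.6 in the knock-in. Only 2 could be tested, with log2 fold changes of -0.51 and -0.32, and 0 were called. In edgeR, 1 of these 2 had an unadjusted p under 0.05 (12.9% of all genes).

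No cyclin, CDK or inhibitor was called changed in the knock-in testis. Of the 45 genes, 44 had enough counts to test, and Cdk3, with counts of 9, 1 and 1 in wild-type testis and 4, 7 and 0 in the knock-in, did not. Over the whole table, edgeR called 155 of 15787 genes tested, 0.982%. The lowest adjusted p among the 44 was 0.13, for Cdk18. DESeq2 and limma on FPKM also called 0, as did the authors' deposited table, which has 2.0% of its genes under an adjusted p of 0.05 and whose lowest value among these genes is 0.0519, for Cdk17. Without a correction for the number of genes, 9 of the 44 (20.5%) had p under 0.05 in edgeR, against 12.9% of all genes tested. DESeq2 gave 7 (15.6%, against 8.56% of all genes), and it gave no adjusted p for some genes, among them Cdkn2b, Ccne1, Cdkn1c and Cdkn2a. In limma on FPKM there were 5 (11.4%), a smaller share than the 13.9% of all genes, and edgeR gave 4 (9.09%, against 8.53% of all genes) without the third knock-in library. The 5 in limma were Ccny, Ccni, Cdk18 and Cdk2, which edgeR also had, and Cdkn2c, which it had not.

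Those 9 genes were Cdk18, Cdk17 and Cdk16, higher in the knock-in, and Cdk19, Ccny, Cdk2, Ccnh, Ccni and Ccnb3, lower in the knock-in. The 3 that were higher made 6.82% of the genes tested (7.83% of all genes were higher at this p), and the 6 that were lower made 13.6% (5.09% of all genes). The 9 were spread unevenly over the roles. Cyclin Y and its CDKs held 4 (of 6 tested), the other cyclins 2 (of 10) and the other CDKs 1 (of 4). The A and B cyclins held 1 (of 5) and the cell-cycle CDKs 1 (of 4). The D and E cyclins and the genes with an inhibitor's symbol held 0. The knock-in and wild-type CPM ranges did not overlap for 14 of the 44 genes (31.8%), 5 higher and 9 lower, against 18.5% of all genes. The median log2 fold change was -0.06, against 0.00 over all genes tested, and 28 of the 44 (63.6%) were below 0, against 49.4% of all genes. The median size of the log2 fold change was 0.11, against 0.12 over all genes.

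The intervals were narrow for most of these genes. The 95% interval of the fold change lay within 1.5-fold in either direction for 35 of the 44 (79.5%), against 67.7% of all genes, and within 2-fold for 43, all but Cdk15. Fitted log2 fold changes ran from -0.36, for Ccnb3, to 0.50, for Cdk17. Together, the 45 genes took 0.208%, 0.207% and 0.214% of the mRNA counts in the wild-type libraries and 0.201%, 0.200% and 0.201% in the knock-in libraries. These shares did not overlap, with the knock-in lower. Abundant genes weigh most in such a sum. Ccni averaged 368 CPM in wild-type testis and 336 CPM in the knock-in. Cdkn2aip averaged 158 and 140 CPM, with ranges that overlapped. Of the 44 genes tested, 16 lay above 0.

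**Figure D1:**
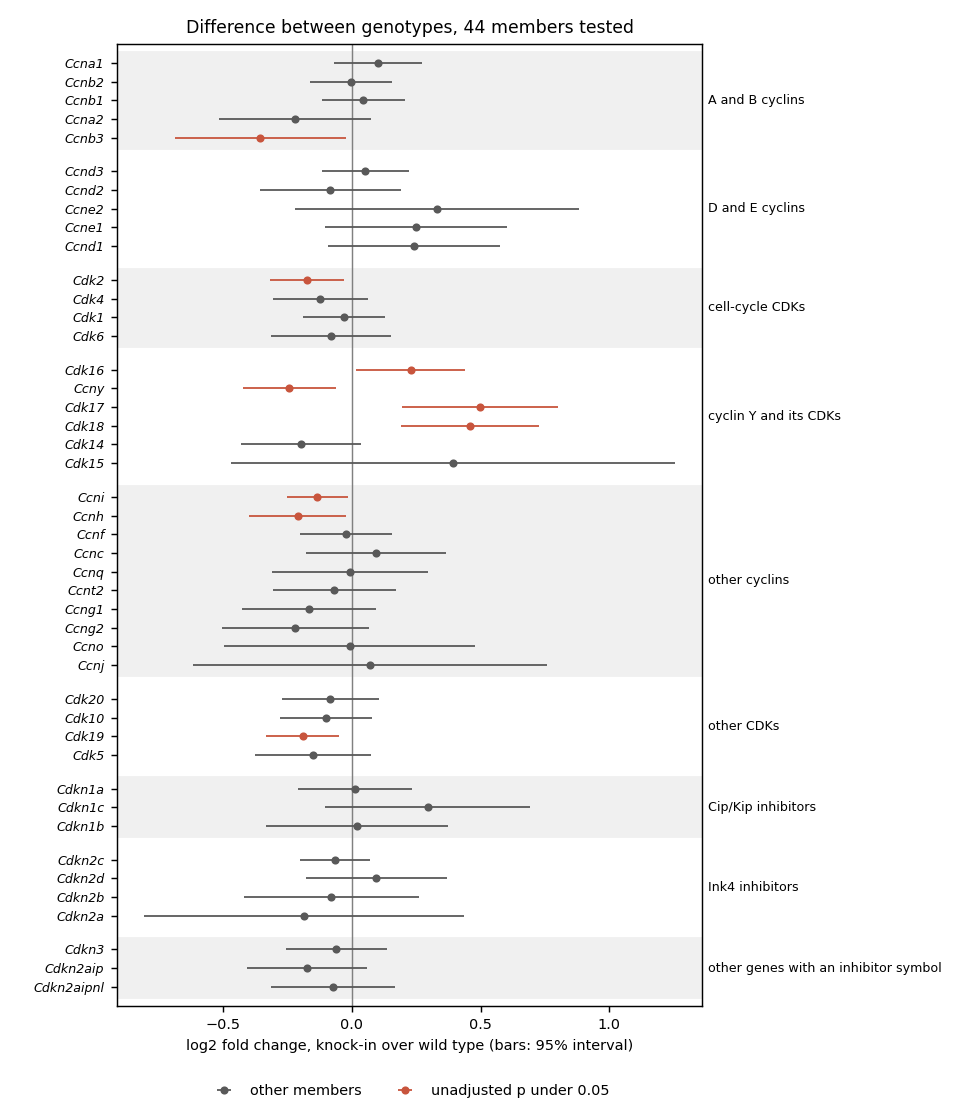
Log2 fold change (knock-in against wild type, x axis) with its 95% interval for the 44 genes tested, one row per gene, grouped by role. Intervals of 43 genes stay within a 2-fold change, and the 9 genes with an unadjusted p under 0.05 include Cdk17, Cdk18 and Cdk16 on the right and Ccnb3, Ccny and Ccnh on the left; none passed the adjusted threshold.

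Levels spanned from 0.24 FPKM for Ccnj to 103 FPKM for Ccni, with a median of 6.95 FPKM over the 44 genes tested, against 5.49 FPKM over all genes tested. After Ccni the order by mean level was Cdkn3, Ccna1, Ccnb2, Ccnb1, Cdkn2c, Ccnd3 and Cdk16. Ccnb1 and Cdkn2c, neighbours in that order, overlapped between libraries (45.7 to 51.5 FPKM and 43.1 to 52.3 FPKM), and so did Ccnd3 and Cdk16.

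**Figure D2:**
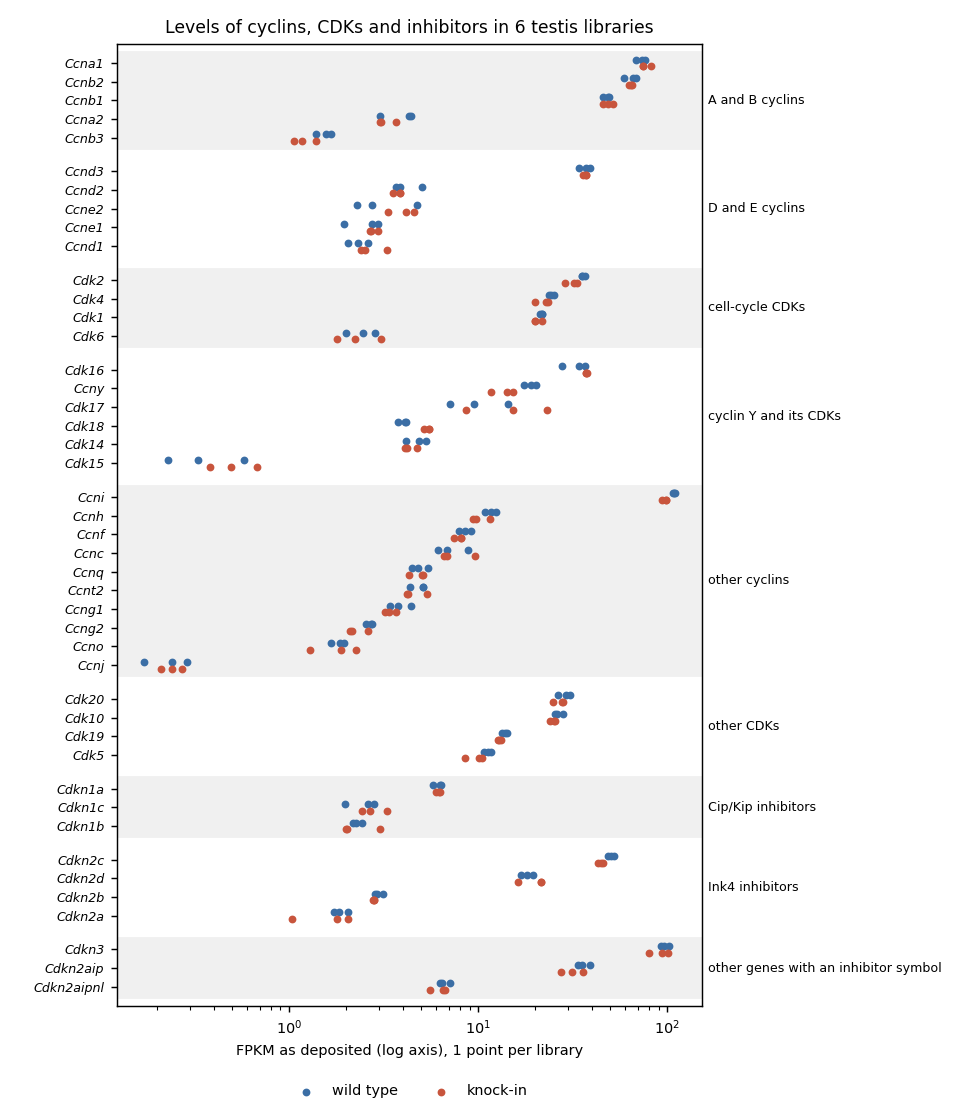
FPKM (log axis) of the 44 genes tested in each of the 6 libraries, ordered by role, with wild-type and knock-in libraries in different colours. Ccni, Cdkn3, Ccna1 and Ccnb2 lie near 59 to 110 FPKM in every library, and Cdk15 and Ccnj lie under 1 FPKM.

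The A and B cyclins showed the testis pattern, with the germ-cell cyclin Ccna1 far above Ccna2, and none was called. Ccna1, on chr3:55045469-55057634, stood at 76.3, 68.5 and 73.6 FPKM in wild-type testis and at 74.2, 74.4 and 82.4 FPKM in the knock-in. Ccna2, the A cyclin of mitotic cells on chr3:36564865-36573038, stood at 3.02, 4.33 and 4.43 FPKM and at 3.06, 3.66 and 3.03 FPKM. Both ranges overlapped between genotypes. The Ccna1 to Ccna2 ratio of FPKM was 19.2 ± 5.24 (SD, n = 3) in wild-type testis and 23.9 ± 3.44 (SD, n = 3) in the knock-in. In the edgeR fit the log2 fold change of Ccna1 was 0.10 ± 0.08 (adjusted p = 0.647) and that of Ccna2 was -0.22 ± 0.13 (adjusted p = 0.543).

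Ccnb1 and Ccnb2, the B cyclins that activate Cdk1 for division, had nearly the same levels in the genotypes. Ccnb2 (chr9:70407689-70421554) stood at 66.0, 59.2 and 68.0 FPKM in wild-type testis and 64.5, 64.8 and 62.5 FPKM in the knock-in. Ccnb1 (chr13:100778739-100786486) stood at 48.9, 45.9 and 49.4 FPKM and at 51.5, 45.7 and 48.9 FPKM. The log2 fold change was 0.00 ± 0.07 for Ccnb2, with a 95% interval from -0.16 to 0.16, and 0.04 ± 0.07 for Ccnb1, with an interval from -0.12 to 0.21. The ratio of Ccnb2 to Ccnb1 was 1.34 ± 0.04 in wild-type testis and 1.32 ± 0.09 in the knock-in (SD, n = 3).

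Ccnb3 is an X-linked cyclin expressed in early meiosis (chrX:6979652-7041635). Its levels were 1.67, 1.56 and 1.38 FPKM in wild-type testis and 1.06, 1.39 and 1.17 FPKM in the knock-in. In CPM the wild type stood at 9.99, 8.92 and 7.95 and the knock-in at 6.27, 7.86 and 6.87, so that every knock-in library lay below every wild-type library in CPM, by a narrow gap. Its log2 fold change was -0.36 ± 0.15, with an interval from -0.69 to -0.02 and an adjusted p of 0.352. Its unadjusted p of 0.0386 stayed under 0.05 in 2 of the 6 fits that leave out a library.

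Because TFIID acts at gene starts, promoters are shown for the genes whose start regions hold both runs of letters known from cell-cycle promoters, CCAAT (the CCAAT box, bound by NF-Y) and TTTGAA (the cell cycle genes homology region, CHR). RefSeq starts on GRCm38.p6, the same build as the mm10 of the files, were available for 34 of the 45 genes, with 39 promoters of 250 bases before and 50 bases after the start. On either strand, CCAAT occurred in 20 of the 39 (51.3%) and in 37.4% of 32851 promoters of all genes. TTTGAA occurred in 7 of the 39 (17.9%) and in 17.9% of all promoters. Both occurred in 5 of the 39 (12.8%), against 6.95% of all promoters. A match is a run of letters and says nothing of binding in these cells. The 5 with both are printed 5′ to 3′ on the gene's strand with the motif letters of either strand in capitals, together with the promoter of Cdk18, which had the lowest adjusted p of the tested genes.
Ccnb2 promoter, chr9:70421505-70421804, minus strand: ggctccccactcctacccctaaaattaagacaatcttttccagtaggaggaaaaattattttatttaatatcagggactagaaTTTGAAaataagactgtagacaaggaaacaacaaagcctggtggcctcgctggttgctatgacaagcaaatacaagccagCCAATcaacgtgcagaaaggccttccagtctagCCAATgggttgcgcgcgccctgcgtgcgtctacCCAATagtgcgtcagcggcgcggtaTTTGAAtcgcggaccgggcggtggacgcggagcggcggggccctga
Cdk1 promoter, chr10:69352863-69353162, minus strand: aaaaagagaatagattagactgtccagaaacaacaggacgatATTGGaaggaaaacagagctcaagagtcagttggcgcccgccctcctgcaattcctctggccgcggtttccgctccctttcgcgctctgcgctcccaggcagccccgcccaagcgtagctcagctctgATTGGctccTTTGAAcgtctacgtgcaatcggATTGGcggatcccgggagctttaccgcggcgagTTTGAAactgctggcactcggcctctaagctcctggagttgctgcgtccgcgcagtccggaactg
Cdkn3 promoter, chr14:46760291-46760590, plus strand: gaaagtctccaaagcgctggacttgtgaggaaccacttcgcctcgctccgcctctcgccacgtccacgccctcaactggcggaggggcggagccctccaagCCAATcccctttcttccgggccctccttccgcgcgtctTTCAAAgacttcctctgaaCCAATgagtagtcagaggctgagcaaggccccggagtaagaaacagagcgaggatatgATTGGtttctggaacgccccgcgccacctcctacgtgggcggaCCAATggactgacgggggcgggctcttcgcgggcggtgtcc
Ccnf promoter, chr17:24251360-24251659, minus strand: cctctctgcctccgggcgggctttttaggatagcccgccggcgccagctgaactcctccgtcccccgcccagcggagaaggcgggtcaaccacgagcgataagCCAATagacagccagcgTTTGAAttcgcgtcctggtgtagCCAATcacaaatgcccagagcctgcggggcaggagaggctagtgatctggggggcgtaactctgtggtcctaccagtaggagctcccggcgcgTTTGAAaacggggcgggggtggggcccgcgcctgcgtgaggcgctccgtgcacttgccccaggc
Cdk16 promoter, chrX:20687704-20688003, plus strand: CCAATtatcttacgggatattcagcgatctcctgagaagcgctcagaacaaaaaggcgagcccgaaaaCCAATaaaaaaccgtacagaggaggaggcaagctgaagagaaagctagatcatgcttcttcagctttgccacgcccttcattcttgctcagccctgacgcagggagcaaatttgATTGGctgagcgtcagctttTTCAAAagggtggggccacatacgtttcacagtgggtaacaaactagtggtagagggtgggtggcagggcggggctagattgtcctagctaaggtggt
Cdk18 promoter, chr1:132139636-132139935, minus strand: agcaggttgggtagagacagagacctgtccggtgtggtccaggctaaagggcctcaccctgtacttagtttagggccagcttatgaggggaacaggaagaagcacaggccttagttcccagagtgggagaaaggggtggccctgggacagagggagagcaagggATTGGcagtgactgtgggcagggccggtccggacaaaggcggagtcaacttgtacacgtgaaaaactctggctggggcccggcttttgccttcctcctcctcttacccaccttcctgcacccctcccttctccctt
Ccnb2 holds CCAAT 87, 54 and 21 bases before its start, all on the gene's strand. Cdk1 holds CCAAT on the opposite strand 208, 80 and 48 bases before its start and TTTGAA 71 and 15 bases before it. Cdk16 has a further RefSeq start at chrX:20688176-20688475 with neither motif, and Cdk18 holds a single CCAAT, on the opposite strand 86 bases before its start.

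The log2 fold changes of the 5 genes with both motifs were 0.00 for Ccnb2, -0.03 for Cdk1, -0.06 for Cdkn3, -0.02 for Ccnf and 0.23 for Cdk16. None was called, where 0.982% of all genes tested were, so 5 genes are too few to describe such promoters.

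The D and E cyclins, which act before and at the start of DNA replication, lay above 0 in 4 of 5 genes (median log2 fold change 0.24). Over all genes tested, 49.4% were below 0. None of the 5 had an unadjusted p under 0.05 in edgeR (12.9% of all genes did). Ccnd3 was the main D cyclin, with 34.2, 37.3 and 38.9 FPKM in wild-type testis and 37.2, 35.7 and 37.0 FPKM in the knock-in. Ccnd2, the D cyclin of differentiating spermatogonia, stood at 3.66, 5.04 and 3.84 FPKM and at 3.88, 3.84 and 3.53 FPKM. Ccnd1 stood at 2.31, 2.04 and 2.62 FPKM and at 2.39, 3.31 and 2.52 FPKM. The log2 fold changes were 0.05 ± 0.08 for Ccnd3, -0.08 ± 0.12 for Ccnd2 and 0.24 ± 0.15 for Ccnd1, and the FPKM ranges of all 3 overlapped.

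The E cyclins partner Cdk2 and were both low. Ccne1 stood at 2.94, 2.76 and 1.95 FPKM in wild-type testis and at 2.68, 2.70 and 2.94 FPKM in the knock-in. Ccne2 stood at 2.75, 2.29 and 4.77 FPKM and at 3.33, 4.59 and 4.13 FPKM. Ccne2 was spread widely within the wild type. Their log2 fold changes of 0.25 ± 0.16 and 0.33 ± 0.25 had intervals that included 0. The value of Ccne2 rested on single wild-type libraries: it was 0.09 ± 0.20 without the second and 0.69 ± 0.19 without the third (adjusted p = 0.233). The CPM of Ccne1 did not overlap between genotypes, although its FPKM did.

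All 4 cell-cycle CDKs that were tested lay below 0 (49.4% of all genes did), with a median log2 fold change of -0.10. The largest difference was that of Cdk2, the partner of the E and A cyclins, which meiosis in mice requires. Cdk2 (chr10:128697938-128705051) stood at 36.7, 35.4 and 35.5 FPKM in wild-type testis and at 28.8, 33.4 and 32.0 FPKM in the knock-in. In CPM it averaged 87.1 ± 4.32 in wild-type testis and 77.2 ± 2.82 in the knock-in (SD, n = 3), and the genotypes did not overlap in either unit. This was a log2 fold change of -0.17 ± 0.06, with an interval from -0.32 to -0.03, an unadjusted p of 0.023 and an adjusted p of 0.296. The unadjusted p stayed under 0.05 in 4 of the 6 fits without a library.

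Cdk1, the kinase of the B cyclins, stood at 21.9, 21.3 and 21.7 FPKM in wild-type testis and at 19.9, 21.7 and 19.9 FPKM in the knock-in, and the ranges overlapped. Cdk4 stood at 24.3, 25.2 and 23.6 FPKM and at 20.1, 23.4 and 22.9 FPKM, apart in FPKM by a narrow gap but overlapping in CPM. Cdk6, which like Cdk4 partners the D cyclins, stood at 2.46, 2.83 and 2.0 FPKM and at 3.05, 2.22 and 1.79 FPKM. Their log2 fold changes were -0.03 ± 0.07, -0.12 ± 0.08 and -0.08 ± 0.10. The Cdk2 to Cdk1 ratio of FPKM was 1.68, 1.66 and 1.64 in wild-type testis and 1.44, 1.53 and 1.61 in the knock-in, with every knock-in library lower.

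Of cyclin Y and the kinases of its family, 4 of 6 genes had an unadjusted p under 0.05 (12.9% of all genes), and 5 of 6 had CPM ranges that did not overlap, 3 higher and 2 lower (18.5% of all genes). Cdk18 (chr1:132113547-132139698) had counts of 177, 168 and 144 in wild-type testis and 235, 230 and 253 in the knock-in. Its FPKM stood at 4.16, 4.12 and 3.76 and at 5.47, 5.52 and 5.14, so all knock-in libraries were above all wild-type libraries in both units. CPM averaged 8.90 ± 0.742 in wild-type testis and 12.2 ± 0.593 in the knock-in (SD, n = 3). This was a log2 fold change of 0.46 ± 0.12, or 37.4% higher, with an interval from 0.19 to 0.73, and the unadjusted p was 0.00354. The adjusted p was 0.13.

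Cdk17 (chr10:93160876-93251094) was higher in counts but not clearly in FPKM. Its counts were 255, 238 and 257 in wild-type testis and 389, 405 and 335 in the knock-in, which gave 13.7 ± 1.04 and 19.4 ± 3.13 CPM (SD, n = 3) with no overlap. Its deposited FPKM were 7.06, 14.5 and 9.49 in wild-type testis and 8.67, 15.3 and 23.0 in the knock-in, and these overlapped. The length that the counts and FPKM together imply varied between libraries for this gene, from 678 to 2412 bases, so the units differ in what they show. The log2 fold change was 0.50 ± 0.14 on counts (41.3% higher; unadjusted p = 0.00446, adjusted p = 0.143), and 0.55 on the log2(FPKM + 0.1) scale in limma (unadjusted p = 0.157). On counts, Cdk17 and Cdk18 kept an unadjusted p under 0.05 in all 6 fits without a library.

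Cdk16 (chrX:20687917-20699880), the member of this family that spermatids need, stood at 36.8, 34.3 and 27.8 FPKM in wild-type testis and at 37.6, 37.0 and 37.3 FPKM in the knock-in. The knock-in libraries lay above all wild-type libraries, and the third wild-type library was the lowest of the 6. Its log2 fold change was 0.23 ± 0.09, with an interval from 0.02 to 0.44 and an adjusted p of 0.346. It was 0.12 ± 0.08 without the third wild-type library and at most 0.29 in the fits without another library, and the unadjusted p stayed under 0.05 in 3 of the 6.

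Cyclin Y itself lay on the other side of 0 from Cdk16, Cdk17 and Cdk18, and on the same side as Cdk14. The cyclin Y-like gene Ccnyl1, which the symbol rule left out, was more abundant, with a mean of 40.4 FPKM against 16.3 FPKM for Ccny. Its log2 fold change in edgeR was -0.02 ± 0.08 (adjusted p = 0.935), and its CPM overlapped between genotypes. Ccny (chr18:9312304-9450154) stood at 17.4, 20.1 and 19.1 FPKM in wild-type testis and at 14.2, 15.3 and 11.7 FPKM in the knock-in, with every knock-in library lower. CPM averaged 63.4 ± 2.95 and 53.7 ± 4.66 (SD, n = 3), a log2 fold change of -0.24 ± 0.08 with an interval from -0.42 to -0.06 (unadjusted p = 0.0137, adjusted p = 0.237). On the log2(FPKM + 0.1) scale in limma the value was -0.46 (unadjusted p = 0.00269, adjusted p = 0.0914), and the length implied by counts and FPKM was 3307 to 3434 bases in wild-type libraries and 3781 to 4099 bases in knock-in libraries. Of the other kinases of the family, Cdk14 had a log2 fold change of -0.20 ± 0.10, and Cdk15, with counts of 12, 10 and 20 against 16, 16 and 28, had 0.39 ± 0.39 and the widest interval among these genes, from -0.47 to 1.26.

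**Figure D3:**
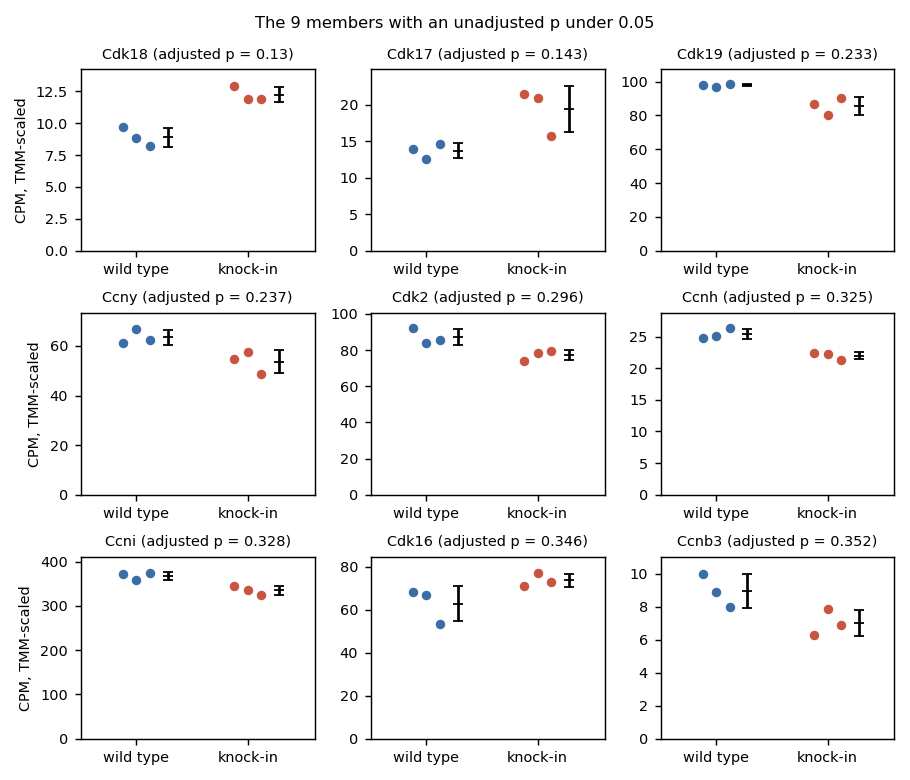
CPM after TMM scaling in each library (points) with the mean and SD of 3 libraries (bars) for the 9 genes with an unadjusted p under 0.05. Cdk18, Cdk17 and Cdk16 are higher in all 3 knock-in libraries and Cdk19, Ccny, Cdk2, Ccnh, Ccni and Ccnb3 lower, and no gene has an adjusted p under 0.13.

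Among the other cyclins 8 of 10 lay below 0 (49.4% of all genes did), with a median log2 fold change of -0.05. Of the 10, 2 had an unadjusted p under 0.05 in edgeR (12.9% of all genes). Ccni, a cyclin-like gene that is abundant in non-dividing cells and whose role is little known, was the most abundant of all, with 107, 108 and 110 FPKM in wild-type testis and 98.6, 98.6 and 93.5 FPKM in the knock-in. The genotypes did not overlap, and the log2 fold change was -0.13 ± 0.05 (unadjusted p = 0.0321, adjusted p = 0.328). Ccnh, the cyclin of the Cdk7 kinase of TFIIH, stood at 24.8, 25.1 and 26.3 CPM in wild-type testis and at 22.3, 22.2 and 21.3 CPM in the knock-in, and its FPKM overlapped. Its log2 fold change was -0.21 ± 0.08 (unadjusted p = 0.031, adjusted p = 0.325). Each of these kept an unadjusted p under 0.05 in 3 of the 6 fits without a library. The other 8, Ccnf, Ccnc, Ccnq, Ccnt2, Ccng1, Ccng2, Ccno and Ccnj, lay between -0.22 (Ccng2) and 0.09 (Ccnc).

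The other CDKs all lay below 0 (49.4% of all genes did), with log2 fold changes from -0.19 to -0.08. Cdk19 (chr10:40349287-40483818), the relative of Cdk8 in the Mediator kinase module, stood at 97.9, 97.1 and 98.4 CPM in wild-type testis and at 86.6, 80.2 and 90.3 CPM in the knock-in, without overlap. The log2 fold change was -0.19 ± 0.06 (unadjusted p = 0.0131, adjusted p = 0.233), and the unadjusted p stayed under 0.05 in all 6 fits without a library. In limma on the log2(FPKM + 0.1) scale it was -0.09 (unadjusted p = 0.242). For Cdk19 the length implied by counts and FPKM was 7015 to 7174 bases in wild-type libraries and 6398 to 6793 bases in knock-in libraries. Cdk5, Cdk10 and Cdk20 had unadjusted p-values from 0.169 to 0.353.

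In the edgeR fit none of the inhibitors had an unadjusted p under 0.05 (12.9% of all genes did). Of the Ink4 family, Cdkn2c was the most abundant, with 52.3, 50.2 and 48.5 FPKM in wild-type testis and 45.9, 43.1 and 44.5 FPKM in the knock-in, lower in FPKM without overlap but overlapping in CPM. Its log2 fold change was -0.06 ± 0.06 on counts and -0.18 on the log2(FPKM + 0.1) scale in limma (unadjusted p = 0.0107, adjusted p = 0.184). The length implied by counts and FPKM was 2358 to 2473 bases in wild-type libraries and 2538 to 2656 bases in knock-in libraries. Cdkn2d, which with Cdkn2c restrains germ-cell division in the testis, stood at 19.6, 18.1 and 16.8 FPKM and at 16.2, 21.4 and 21.6 FPKM, with a log2 fold change of 0.10 ± 0.12.

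Cdkn2a and Cdkn2b, the remaining Ink4 genes, lie together on chromosome 4 and were low. Cdkn2a stood at 1.72, 1.84 and 2.05 FPKM in wild-type testis and at 1.04, 2.06 and 1.79 FPKM in the knock-in. Cdkn2b stood at 3.14, 2.92 and 2.84 FPKM and at 2.81, 2.77 and 2.80 FPKM, lower by a narrow gap in FPKM and overlapping in CPM. Their log2 fold changes were -0.19 ± 0.28 and -0.08 ± 0.15, the former the less precise of the 2.

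Of the Cip/Kip family, Cdkn1a, the target of p53, stood at 5.76, 6.38 and 6.31 FPKM in wild-type testis and at 6.01, 6.30 and 6.18 FPKM in the knock-in. Cdkn1b stood at 2.19, 2.44 and 2.25 FPKM and at 2.0, 3.01 and 2.03 FPKM. Cdkn1c, an imprinted inhibitor, stood at 1.97, 2.82 and 2.63 FPKM and at 2.69, 2.43 and 3.30 FPKM. Their log2 fold changes were 0.01 ± 0.10, 0.02 ± 0.16 and 0.30 ± 0.18. Cdkn3, a phosphatase that acts on CDKs, was the second most abundant of all these genes, at 92.9, 96.1 and 102 FPKM in wild-type testis and 101, 80.3 and 93.4 FPKM in the knock-in, with a log2 fold change of -0.06 ± 0.09. With the trend on transcript length removed, it was -0.21 ± 0.09 (unadjusted p = 0.0365, adjusted p = 0.377).

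The noncoding and circular RNA tables added no called feature at these loci. Of 36 noncoding transcripts that carry one of these symbols, from 19 genes, 24 were above 0 and 7 were tested; 0 were called in edgeR and 1 had an unadjusted p under 0.05, against 0.0968% called and 8.97% at that p among 9301 transcripts tested. The most abundant was a Cdkn3 transcript (ENSMUST00000226621), with counts of 1087, 1095 and 1126 in wild-type testis and 1141, 877 and 1239 in the knock-in. Cdk16 (ENSMUST00000132365) followed with counts of 431, 351 and 282 and of 424, 362 and 462, and Ccnt2 (ENSMUST00000153359) with 116, 115 and 129 and with 121, 115 and 101.

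The transcript with the low p was ENSMUST00000216736 of Cdk19, which is named after its values were seen. Its counts were 0, 14 and 36 in wild-type testis and 128, 163 and 87 in the knock-in, higher in every knock-in library, while the coding CPM of Cdk19, given above, was lower in every knock-in library. The log2 fold change was 2.83 ± 0.77 (unadjusted p = 0.00626, adjusted p = 0.288). The adjusted p was 0.0223 without the filter on low counts and 0.902 in DESeq2. Whether reads of this transcript were also counted for the coding gene is not given in the sources used here.

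Of circular RNAs, most of which form when a splice joins an exon's end back to an earlier start, 14 were assigned to 9 of these genes in the authors' deposited table, with 104 counts in all. Of these, 1, assigned to Cdk19 with 3 counts, is typed there as antisense and so is not a circle of that gene's own transcript, and another, of Cdk19 with 8 counts, is typed as intronic. Of the 14, 8 could be tested, the antisense circle not among them; 0 were called in edgeR and 0 had an unadjusted p under 0.05, where 0% of 3887 circles tested were called and 4.91% were at that p. The most abundant was a Cdk19 circle (chr10:40394325-40436212, 328 bases after splicing), with counts of 8, 1 and 0 in wild-type testis and 5, 4 and 5 in the knock-in. A Cdk17 circle (chr10:93208172-93218089) followed with 1, 5 and 3 and with 2, 3 and 4 counts, and another Cdk19 circle (chr10:40466638-40469955) with 2, 2 and 0 and with 9, 0 and 1 counts. In all 3 the genotypes overlapped. Without the antisense circle, Cdk19 had 4 circles, with 21 counts over the wild-type libraries and 29 over the knock-in libraries. Cdk17 gave 2, with 12 and 14 counts. The 95% interval of the log2 fold change of the most abundant circle ran from -1.17 to 2.20, an interval that does not leave out a 2-fold difference in either direction.

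The partners and regulators of these genes were measured from 5 lists chosen by function, with 111 of the 113 found genes tested. Of these, 1 was called, against 0.982% of all genes, and 14 (12.6%) had an unadjusted p under 0.05, 10 higher and 4 lower, against 12.9% of all genes. Incenp, the scaffold of the Aurora B complex at centromeres, was the called gene. It stood at 14.2, 15.8 and 14.4 FPKM in wild-type testis and at 19.4, 20.2 and 19.8 FPKM in the knock-in, a clear separation. Its log2 fold change was 0.44 ± 0.06, with an adjusted p of 0.0155. The call was lost in the fits without wild-type libraries 1, 2 and 3 and without knock-in library 3, where the adjusted p was 0.0501, 0.0814, 0.0799 and 0.095.

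The most abundant genes of 4 lists had log2 fold changes between -0.12 and 0.19, none called. In the list of mitotic kinases and the spindle checkpoint (20 tested, median log2 fold change 0.04), the histone kinase Haspin had 0.10 ± 0.07 and the Aurora kinase Aurka -0.09 ± 0.07. Among the CDK partners and the enzymes that phosphorylate CDKs (21 tested, median 0.02), the meiotic crossover protein Ccnb1ip1 had 0.19 ± 0.11 and Cdk5rap3 0.01 ± 0.07. In the Rb, E2F and Myb-MuvB list (21 tested, median 0.05), Rbbp4 had -0.12 ± 0.05 and the pocket protein Rbl2 0.04 ± 0.07. Of these 21, 5 (23.8%) had an unadjusted p under 0.05 in edgeR, 3 higher and 2 lower, against 12.9% of all genes. That share ran from 4.17% to 20.0% in the other partner lists. CPM ranges did not overlap for 9 of the 21 (18.5% of all genes). The licensing and replication list (24 tested, median -0.01) included the helicase subunit Mcm7 and the clamp Pcna, both at 0.00 with a standard error of 0.06.

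In the list of cyclin destruction (25 tested, median 0.00), which holds the ubiquitin ligases that remove cyclins, the E2 enzyme Ube2s stood at 386, 381 and 381 FPKM in wild-type testis and at 344, 351 and 341 FPKM in the knock-in. Its log2 fold change on counts was 0.10 ± 0.06, so the FPKM and the counts differed in sign. Skp1a, the linker of the SCF ligase, stood at 159, 169 and 168 FPKM and at 145, 132 and 137 FPKM, with a log2 fold change of -0.24 ± 0.06 and an adjusted p of 0.13. The summed FPKM of this list, which includes Ube2s and Skp1a, was 1257 to 1277 in wild-type testis and 1202 to 1213 in the knock-in. On counts, 13 of the 25 genes lay above 0 and 12 below, and 0 were called.

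**Figure D4:**
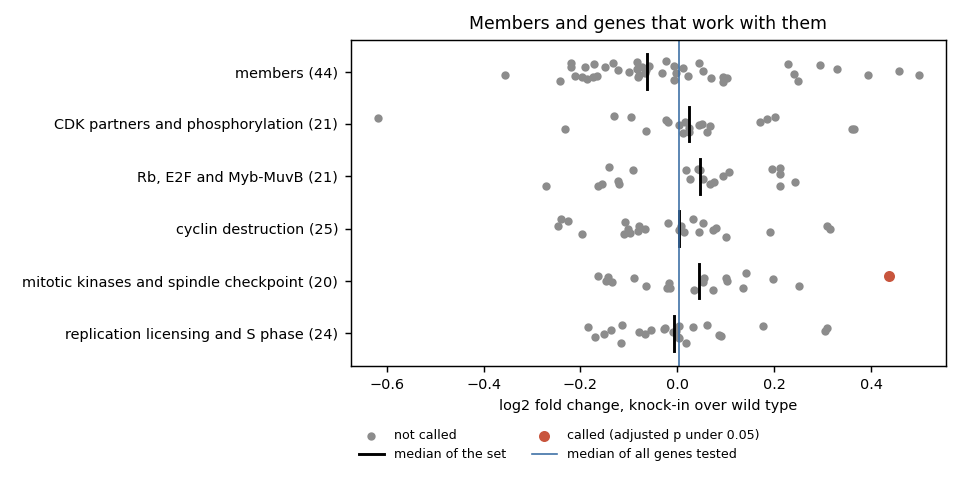
Log2 fold change (knock-in against wild type) of the 44 cyclin, CDK and inhibitor genes and of the 5 lists of partners and regulators, a point per gene with the median of each group, and a line at the median of all genes. The medians lie between -0.06 and 0.05, and Incenp is the one called gene.

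Whole testis mixes many cells, and fewer cells of a type cannot be told apart from less RNA per cell. Some marker lists of germ and somatic cells differed between the genotypes. The summed FPKM of 14 meiotic spermatocyte markers was 4264 to 4416 in wild-type testis and 3913 to 4234 in the knock-in, without overlap, with 10 of 14 below 0 and a median log2 fold change of -0.06, but the 3 with an unadjusted p under 0.05 (Sycp1, Piwil1 and Hspa2) were all higher. That of 12 spermatogonial markers was 325 to 342 and 355 to 366, also without overlap, with a median of 0.03; of the 3 with an unadjusted p under 0.05, Dmrtb1 was higher and Stra8 and Uchl1 were lower. All 8 peritubular myoid markers lay above 0, with a median of 0.37, and 6 of them had an unadjusted p under 0.05 (12.9% of all genes), while their summed FPKM overlapped (79.0 to 96.1 and 94.9 to 114). Of the markers of round spermatids 1 of 11 was called, higher in the knock-in, with a list median of 0.05, and of elongating spermatids 2 of 10 were called, both higher, with a median of 0.15 (0.982% of all genes were called); the summed FPKM of both lists overlapped. Sertoli cell markers had a median of 0.00 and Leydig cell markers of 0.07. In edgeR an unadjusted p under 0.05 was seen for 0 of 11 Sertoli cell markers and 2 of 8 Leydig cell markers, both higher. It was also seen for 3 of 11 round spermatid markers, all higher. Among elongating spermatid markers 6 of 10 had such a p, 5 higher and 1 lower (12.9% of all genes). The part of these differences in the values of Cdk2, Ccnb3, Ccny and the Cdk16 to Cdk18 kinases was not tested.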

How the data were processed

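RNA was measured by sequencing in 6 whole-testis libraries, 3 per genotype; the libraries were made from total RNA with a stranded kit, per the labels. For every feature and library the authors deposited counts, per the file headers, in separate tables for mRNA genes, noncoding transcripts and circles. Beside the counts stand FPKM for linear RNAs and RPM for circles, where the deposited RPM is relative to the library's circular counts. Columns of the authors' own comparison hold genotype means (a deposited signal for circles), their log2 ratio and p-values with and without adjustment. Which test produced those is not given in the sources used here. The build of the files was mm10, per the submitters' processing notes. No aligner, counter, annotation, strand setting or rule for reads shared by overlapping or near-identical genes is given in the sources used here.

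Counts were tested with edgeR 4.0.16 (quasi-likelihood F test, two-sided, TMM scaling, filterByExpr with a minimum count of 10 and total of 15; limma 3.58.1, R 4.3.3). Circles were kept when above 0 in at least 3 libraries. Adjusted p-values are Benjamini-Hochberg over all features tested, and the standard error was derived from the F statistic. Alternatives were other scalings, no filter, DESeq2 1.42.0, limma on log2(FPKM + 0.1) and log2(FPKM + 1), removal of a loess trend on length (span 0.3), a replicate block and leaving out each library. Replicate libraries were compared and none repeated another (chi-square per degree of freedom 5.42 to 10.4). RefSeq tables (GRCm38.p6) gave coordinates for all 45 genes and promoters for 34, matched by symbol.

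Values in every library were given for genes with an unadjusted p under 0.05, the 8 most abundant, and the A, B, D and E cyclins, their CDKs and the inhibitors. From each partner list the called genes and the 2 most abundant were named, and from the noncoding and circular tables the 3 most abundant. Ccnyl1 was named besides as a relative of Ccny, after its values were seen. The genes and lists were chosen with earlier results of these data known.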

Additional observations from a re-analysis of the deposited data

How the results depend on the processing

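None of the cyclin, CDK and inhibitor genes was called in any of the 14 alternatives that gave a count. How many genes had an unadjusted p under 0.05 did depend on the fit: 9 in the main test, 5 in limma on log2(FPKM + 0.1), 10 with a replicate block, and 4 to 8 without each library in turn. Calls over the whole mRNA table went from 155 to 457 in DESeq2, 251 in limma on FPKM and 56 with the length trend removed, and lay between 11 and 125 without each library; calls among the partner lists were 2 in DESeq2 and in limma on FPKM and 0 to 1 without each library. Noncoding transcripts called were 9, but 129 without the filter, 119 in DESeq2, 2 with the replicate block and 6 to 15 without each library, and circular RNAs called were 0, or 0 to 1 without each library. The cause of these shifts was not tested.

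Of 527 values of named features under 15 alternatives, 500 kept direction and side of the threshold, 4 (Incenp) fell below it, 1 (the Cdk19 noncoding transcript) passed it and 22, none called, changed sign. The 500 include Cdkn2b, Ccne1, Cdkn1c and Cdkn2a in DESeq2, which gave them no adjusted p, so that they had no side of the threshold there. Cdkn1a was -0.00612 with upper quartile scaling and -0.000171 with the length trend removed, with and without the replicate block, Ccnd3 was -0.00578 and -0.00568 in limma on log2(FPKM + 0.1) and log2(FPKM + 1), and Ccnb2 was 0.000384 with the replicate block. Without each library in turn, log2 fold changes ran from -0.0740 to 0.0337 for Ccnb2, -0.0158 to 0.0427 for Cdkn1a, -0.131 to 0.108 for Cdkn1b, -0.0139 to 0.0895 for Ccnb1, -0.148 to 0.0446 for Ccnd2, -0.369 to 0.0355 for Cdkn2a, -0.146 to 0.0333 for Cdkn3 and -0.0109 to 0.116 for Ccnd3. They ran from -0.606 to 0.443 for the circle of Cdk17 with 18 counts and from -1.35 to 1.74 for the circle of Cdk19 with 14 counts.

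Same-numbered libraries of the genotypes correlated at 0.137, 0.0780 and 0.0322 in their deviations from the group means, so the numbers were not taken to pair the samples; the replicate block gave 178 mRNA calls and 0 among the cyclins, CDKs and inhibitors. Low counts limit the circles, whose intervals are wide, and the number of libraries limits all tests.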
